A study of Mus musculus with 2 samples.

Results

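The cells described here were Cd3-negative lymphocytes of the mouse prostate, 123 cells of 15742 in all, found by single-cell RNA-seq in lesions driven by a human androgen receptor transgene (hARtg). Members were chosen by measured values of these genes. A cell was a member when no unique molecular identifier (UMI, one counted mRNA molecule) of Cd3e, Cd3d or Cd3g was found in it, when it held a UMI of Il2rb or Nkg7 and a UMI of Ptprc or Rgs1, when Epcam and C1qa were at 0, and when its natural-log value of Lyz2 was below 1. The series held 1 prostatic intraepithelial neoplasia (PIN) library and 1 prostate adenocarcinoma (PCa) library. Both came from R26 mTmG/hAR:Osr1 Cre/+ mice on a mixed C57BL/6 and 129S1/SvImJ background, in which Cre under Osr1 control switches on hARtg and membrane GFP in Osr1-lineage cells. The transgene was carried in both tissues, so no prostate without it stood beside them. The labels gave no age, and the study's text describes the PCa tissue as from older mice than the PIN tissue, so age went with tissue. Tissue was dissociated with collagenase and TrypLE, and neither lymphocytes nor other leukocytes were enriched.

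The deposited table joined both libraries, and its barcodes ended in 1 of 2 numbers that the labels tied to neither tissue. The cells are therefore given as barcode set 1 (6332 cells) and barcode set 2 (9410 cells), with no tissue assigned. The study's text states a number of filtered cells for each tissue, and these numbers resemble the sizes of the sets, but groups were taken from the labels alone. Each set was 1 library without replicates, so there was no test of any difference. Intervals are 95% intervals of counting error only (exact Poisson for a level, Clopper-Pearson for a share, conditional binomial for a log2 ratio). Levels are summed UMIs of a gene scaled to counts per 1000000 summed UMIs of the cells (CPM), and they compare cells for 1 gene, not genes with one another, because 3' tags were counted without gene length. The comparison cells were the Cd3-positive cells under the same Epcam and C1qa limits, 620 in set 1 and 33 in set 2.

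Natural killer (NK) cells and the other innate lymphoid cells (ILCs) are lymphocytes without a rearranged antigen receptor. NK cells and ILC1 kill target cells with perforin and granzymes or secrete interferon-gamma, ILC2 secrete type 2 cytokines and ILC3 secrete interleukin 17 and interleukin 22. In place of the CD3 chains, many NK receptors signal through the adaptors FCER1G and TYROBP, and the T-box factors EOMES and T-bet, with RUNX and ETS family factors, act in the development of these cells.

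Among the adaptors, Fcer1g (chromosome 1, 171229572 to 171234349, GRCm38.p6) was found in most members, and Ncr1, which encodes NKp46, is the receptor most used to mark NK cells and some ILCs (chromosome 7, 4337715 to 4345184). The 250 bases before each start are shown, 5′ to 3′, because the pooled levels of both genes were higher in members than in Cd3-positive cells. Ncr1 was found in a minority of members only. They are RefSeq sequence of GRCm38.p6, Fcer1g at chr1:171234350-171234599 on the minus strand and Ncr1 at chr7:4337465-4337714 on the plus strand, and Ncr1 has another annotated start that is not shown. Capitals mark matches to an ETS motif (AGGAAG) or a RUNX motif (TGTGGT, read as ACCACA on the other strand).
Fcer1g: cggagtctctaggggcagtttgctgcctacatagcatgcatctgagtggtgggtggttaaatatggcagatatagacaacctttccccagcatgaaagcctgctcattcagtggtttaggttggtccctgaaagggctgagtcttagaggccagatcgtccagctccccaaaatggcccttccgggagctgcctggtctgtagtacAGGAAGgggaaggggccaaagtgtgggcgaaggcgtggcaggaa
Ncr1: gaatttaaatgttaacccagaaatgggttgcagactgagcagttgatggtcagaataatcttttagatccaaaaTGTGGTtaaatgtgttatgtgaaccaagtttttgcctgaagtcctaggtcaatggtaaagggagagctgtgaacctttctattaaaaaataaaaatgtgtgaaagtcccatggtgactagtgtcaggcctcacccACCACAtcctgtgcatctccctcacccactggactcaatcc
Both strands were searched. The ETS letters stood 44 to 39 bases before the Fcer1g start, and the RUNX letters stood 176 to 171 and, on the other strand, 41 to 36 bases before the Ncr1 start. The marked matches did not overlap. The T-box letters GGTGTGA matched neither window. Of 32851 mouse promoters of this length, 29.5% held the ETS letters, 14.0% the RUNX letters and 3.33% the T-box letters, so these matches are a description of sequence only.

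Members were nearly all in barcode set 1. They were 118 of 6332 cells there (1.86%, 1.54% to 2.23%) and 5 of 9410 cells in set 2 (0.0531%, 0.0173% to 0.124%). Cd3-positive cells were likewise more frequent in set 1, at 9.79% (9.07% to 10.6%) against 0.351% (0.242% to 0.492%). Among the cells that passed every limit other than Cd3, members made up 118 of 671 in set 1 (17.6%, 14.8% to 20.7%) and 5 of 32 in set 2 (15.6%, 5.28% to 32.8%). The sets thus differed in the share of lymphocytes, while the Cd3-negative share of those lymphocytes had overlapping intervals. With 1 library each, a difference between tissues, between ages, between dissociations and between captures cannot be told apart. No barcode of a member occurred in both sets, although 67 barcodes did among all cells.

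Members were shallow cells. In set 1 they held 1989 to 19046 UMIs (median 3864.5) and a median of 1683 genes, close to the Cd3-positive cells with a median of 3536.5 UMIs and 1603 genes, whereas the median over all cells of set 1 was 17235 UMIs. Mitochondrial UMIs were 3.01% of a member's UMIs in the median and 3.32% in Cd3-positive cells. The 118 members together gave 504695 UMIs and the 620 Cd3-positive cells 3013397, which is the depth behind each level in set 1.

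The rule itself set the following values, which are given as a description. Of the 123 members, 86 held both Il2rb and Nkg7, 23 Il2rb alone and 14 Nkg7 alone, and 113 held both Ptprc and Rgs1. Il2rb, the beta chain of the interleukin 2 and 15 receptors, stood at 606 CPM (540.3 to 678) in members of set 1 and 349 CPM in Cd3-positive cells, with a median of 2 and at most 8 UMIs in a member. Rgs1, a regulator of chemokine receptor signalling, stood at 11458 CPM (11165 to 11758) against 5606 CPM and ranged from 0 to 162 UMIs in a member with a median of 41.5. Nkg7 was at 874 against 803 CPM and Ptprc at 904 against 541 CPM.

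Just outside the limits, 553 cells of set 1 failed by Cd3 alone, and 20 of these held a single Cd3 UMI (median 7, highest 78). Another 76 failed by Epcam alone, 28 of them through a single UMI. A further 37 failed by lacking both Il2rb and Nkg7, 2 by lacking both Ptprc and Rgs1, 1 by a single Lyz2 UMI and 0 by C1qa. All members had Lyz2 at 0.

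A cell can lack a Cd3 UMI because few molecules were captured from it. The share of cells without a Cd3 UMI did not step down evenly with depth. It was 16.2% of 388 cells with 2000 to 4000 UMIs (12.7% to 20.3%), 23.1% of 208 cells with 4000 to 8000 UMIs (17.5% to 29.4%) and 7.69% of 65 cells with 8000 or more (2.54% to 17.0%), while 2 of 10 cells under 2000 UMIs lacked Cd3. When the 553 Cd3-positive cells with Il2rb or Nkg7 were thinned to 2000 UMIs, below the depth of nearly all members, 34 of the 545 deep enough lost every Cd3 UMI (6.24%, 4.36% to 8.61%). Had every member carried Cd3 at the pooled Cd3-positive level of 1614 CPM, 0.595 of 118 cells would have been without a UMI by counting alone. Some cells with few Cd3 transcripts may be counted among the members at these depths, and their number is not known.

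The same 671 cells were also split by Fcer1g, which the rule did not use. By log2 of the ratio of (CPM + 10), Fcer1g led the genes named as higher in members than in Cd3-positive cells of this set (4.19). Its link to a lack of Cd3 was thus known from these same cells, and the split describes them and tests nothing. Of 130 cells with a Fcer1g UMI, 101 lacked Cd3 (77.7%, 69.6% to 84.5%), and of 541 cells without one, 17 lacked Cd3 (3.14%, 1.84% to 4.98%). Within 2000 to 4000 UMIs the shares were 83.9% of 62 cells with Fcer1g and 3.37% of 326 without. Within 4000 to 8000 UMIs they were 77.2% of 57 and 2.65% of 151. In the deepest cells they were 40.0% of 10 and 1.82% of 55, so the order held in each of these depth ranges. FCER1G is a signalling chain of Fc receptors and NK receptors.

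**Figure D1:**
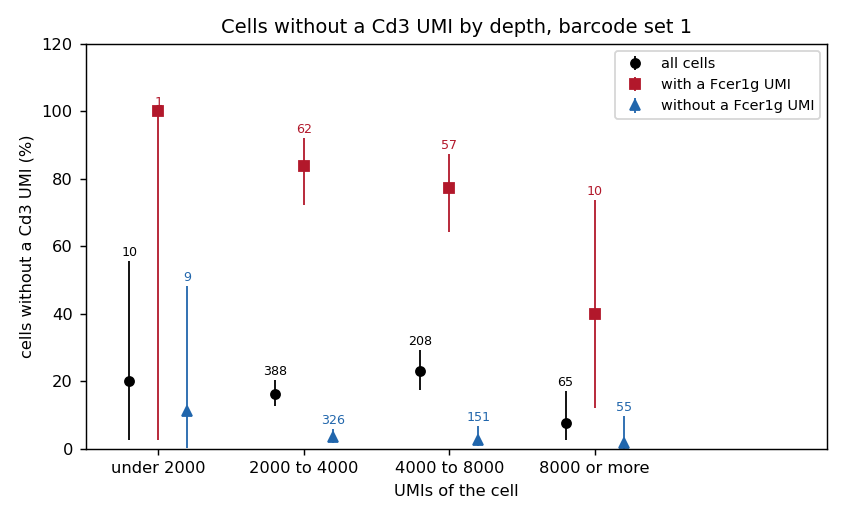
Percent of cells without a Cd3 UMI (vertical axis) by the UMIs of the cell (horizontal axis, 4 ranges), for barcode set 1 cells that pass every limit other than Cd3. Points are shares, lines are 95% Clopper-Pearson intervals and the number above each is the cells in that range. From 2000 UMIs up, cells with a Fcer1g UMI lie between 40.0% and 83.9% and cells without one between 1.82% and 3.37%.

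Compared with Cd3-positive cells, members of set 1 carried the adaptors and receptors of innate lymphocytes, lacked most T cell genes outside Cd3, and had less of the checkpoint transcripts Pdcd1 and Ctla4. A gene was compared when it had 20 or more UMIs over both sides, and it is counted as higher or lower when log2 of the ratio of (CPM + 10) was 1 or more, or −1 or less. Of 9030 genes compared, 186 were higher in members (2.06%) and 341 were lower (3.78%), with a median over all genes of −0.06. Against the 553 Cd3-positive cells that also held Il2rb or Nkg7, 178 of 8895 genes were higher (2.00%) and 353 lower (3.97%), of which 174 and 328 were shared with the first comparison. Since Cd3 and the other rule genes chose both sides, these counts and those of the lists describe the cells and test nothing. The log2 ratios given below are of the CPM themselves.

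Of 24 NK receptor and adaptor genes compared, 14 were higher and 0 lower in members, with a median of 1.07. Of the 14, 4 were Klra genes. Fcer1g stood at 781 CPM (705 to 862) in members and 33.2 CPM in Cd3-positive cells, a log2 ratio of 4.56 (4.24 to 4.89). It was found in 101 of 118 members, with a median of 3 and at most 15 UMIs, and in 30 of 620 Cd3-positive cells. Tyrobp, the adaptor DAP12 of activating NK receptors, stood at 337 CPM (288 to 391) against 15.3 CPM and was found in 63 members and 21 Cd3-positive cells. The groups overlapped in single cells for both genes, since 17 members had no Fcer1g UMI and 55 had no Tyrobp UMI.

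Both adaptors are also made by myeloid cells, and Fcer1g stood at 1232 CPM in the C1qa-positive cells of set 1. Of the macrophage markers, C1qb, C1qc, Adgre1 and Csf1r were at 0 in the members, and the summed level of the macrophage list was 23.8 CPM in members and 33.2 CPM in Cd3-positive cells. Epithelial cells, which should lack Fcer1g, held it at 0.814 CPM at a median of 21949 UMIs per cell.

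Fcgr3, the Fc receptor CD16 through which NK cells bind antibody-coated targets, stood at 121 CPM against 1.33 CPM, a log2 ratio of 6.51 (5.08 to 8.43), and was found in 40 members and 4 Cd3-positive cells. Klrb1b, an inhibitory lectin-like receptor, stood at 281 CPM against 16.3 CPM and was found in 72 members and 24 Cd3-positive cells. Ncr1 stood at 49.5 CPM (32.1 to 73.1) against 1.66 CPM, a log2 ratio of 4.90 (3.49 to 6.64), in 18 members and 3 Cd3-positive cells. No Ncr1 UMI was found in 4913 epithelial cells or in the 394 Cd3-positive cells with Cd8a or Cd8b1. These receptors were thus found in part of the members and in few Cd3-positive cells. Fcgr3 and Klrb1b were not set against the C1qa-positive cells here.

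Klrk1, the activating receptor NKG2D that cytotoxic T cells also carry, differed less, at 648 against 189 CPM (log2 ratio 1.78, 1.58 to 1.97), and was found in 89 members and 180 Cd3-positive cells. Cd244, an activating receptor of the SLAM family, stood at 105 against 25.2 CPM, and Klrg1, a receptor for cadherins, at 37.6 against 3.98 CPM in 10 members and 7 Cd3-positive cells. Among the receptors with smaller differences were Klrd1 (CD94) at 406 against 258 CPM, its partner Klrc1 (NKG2A) at 291 against 240.3 CPM, Klrc2 at 254 against 176 CPM and Klre1 at 117 against 72.0 CPM. The Klra, Klrb1, Klrc and Klri genes have near-identical copies to which reads cannot always be assigned, so the level of each is uncertain.

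The NK cell marker list, which overlaps the receptor list, had 11 of 17 compared genes higher and 0 lower (median 1.13). The ILC1 list had 1 higher and 1 lower of 6, the ILC2 list 0 of 7 in either direction, and the ILC3 list 0 of 4. Il17a and Il17f, cytokines of ILC3, were at 0 in all members. Il1rl1, the interleukin 33 receptor of ILC2, was found in 2 members and 8 Cd3-positive cells, and Il5 in 2 members and 1 Cd3-positive cell. Of these genes Fcer1g, Tyrobp, Klrb1b and Klrk1 were each found in most members and Ncr1, Fcgr3 and Klrg1 in a minority, and Ramp3, which had been named as a marker of these cells, went the other way.

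**Figure D2:**
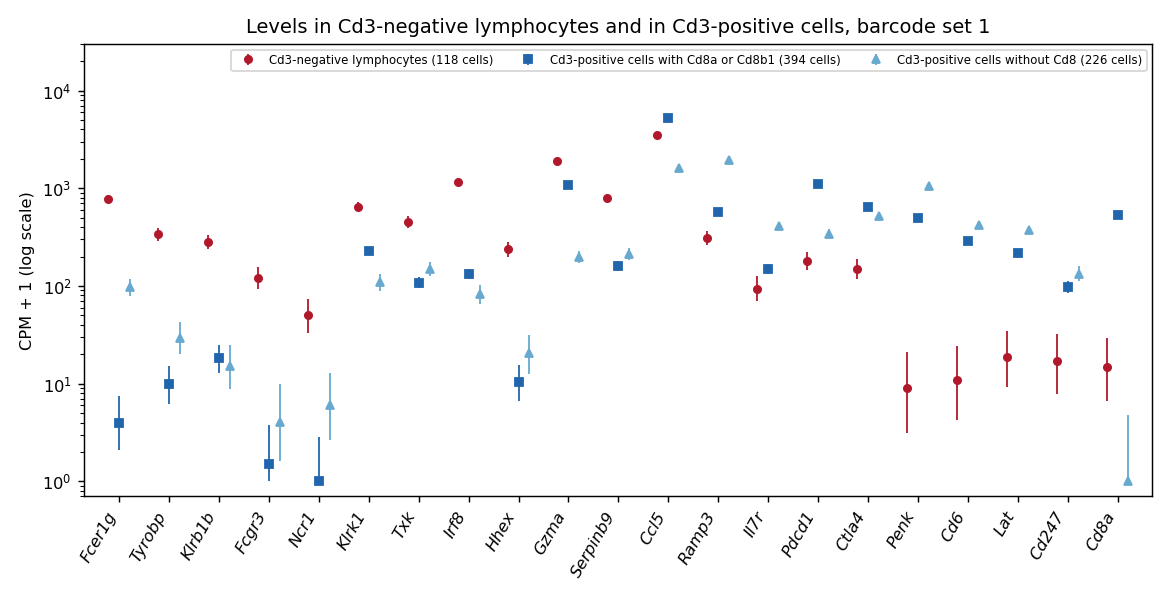
Level in CPM + 1 (vertical axis, log scale) of 21 genes (horizontal axis) in barcode set 1, for 118 Cd3-negative lymphocytes, 394 Cd3-positive cells with Cd8a or Cd8b1 and 226 Cd3-positive cells without them. Points are pooled levels and lines are exact Poisson 95% intervals. Fcer1g, Tyrobp, Klrb1b, Fcgr3 and Ncr1 are highest in the Cd3-negative cells, and Ramp3, Il7r, Pdcd1, Penk, Cd6 and Lat are lowest there.

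T cell genes that the rule did not use were low or missing in members. Of 19 genes of T cell receptor signalling compared, 11 were lower and 0 higher (median −1.70), and of the 14 genes of the overlapping T cell marker list 10 were lower and 0 higher. Cd6, a co-receptor of T cells, stood at 9.91 CPM in members and 332 CPM in Cd3-positive cells and was found in 4 members and 344 Cd3-positive cells. Lat, the membrane scaffold of T cell receptor signalling, stood at 17.8 against 266 CPM, in 5 members and 361 Cd3-positive cells. Cd8a was found in 4 members and 332 Cd3-positive cells, and Cd247, the zeta chain that NK cells can also use, in 7 and 209. Cd4 was at 0 in the members, which a level of up to 5.94 CPM allows (3 UMIs over the members), and was thus at least 5.92-fold lower than the 35.2 CPM of Cd3-positive cells.

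Signalling genes shared by T and NK cells differed less. The kinases Zap70 and Lck stood at 91.1 against 164 CPM and 139 against 234 CPM. Txk, a Tec family kinase, was higher in members, at 452 against 120.1 CPM (log2 ratio 1.91), and was found in 85 members and 210 Cd3-positive cells. Cd28, the costimulatory receptor of T cells, was still found in 39 members, at 196 against 661 CPM. Of the gamma-delta T cell list only 2 genes could be compared and neither was higher or lower. The constant-region genes of the T cell receptors that were looked for were not among the features available here, so none could be compared.

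The same cells rarely carried both kinds of gene. Over 8 T cell genes outside the rule (Cd8a, Cd8b1, Cd4, Cd5, Cd6, Lat, Cd247 and Themis), 103 of 118 members had a UMI of none (87.3%) and 4 had UMIs of 2 or more (3.39%), whereas 588 of 620 Cd3-positive cells had at least 1 (94.8%) and 518 had 2 or more (83.5%). Over 5 innate genes (Fcer1g, Tyrobp, Fcgr3, Klrb1b and Ncr1), 109 members had at least 1 (92.4%) and 96 had 2 or more (81.4%), whereas 58 Cd3-positive cells had at least 1 (9.35%) and 18 had 2 or more (2.90%). These genes were chosen after their values were seen. With 2 or more innate genes and no T cell gene were 87 members (73.7%) and 5 Cd3-positive cells (0.806%). The opposite make-up, 2 or more T cell genes and no innate gene, was found in 3 members (2.54%) and 482 Cd3-positive cells (77.7%).

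**Figure D3:**
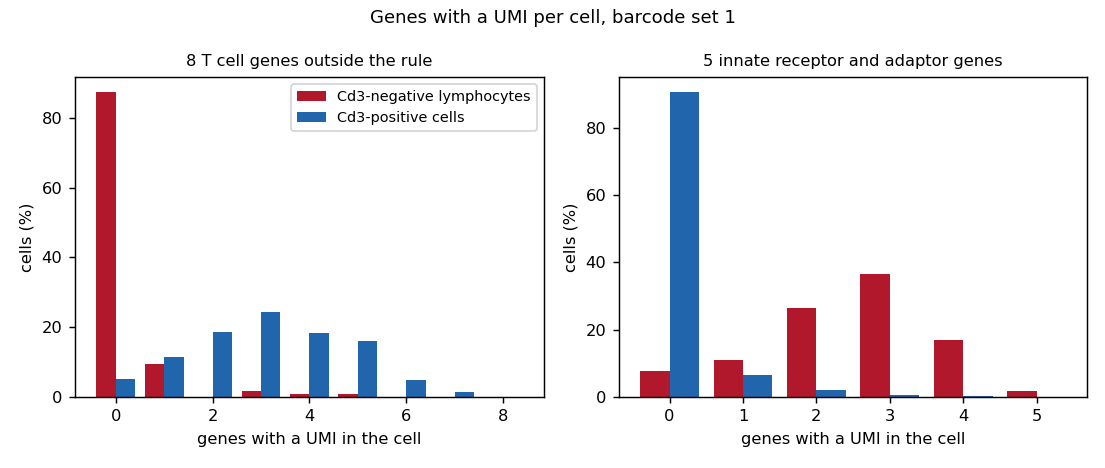
Percent of cells (vertical axis) by the number of genes with a UMI in the cell (horizontal axis), for 8 T cell genes outside the rule (left) and 5 innate receptor and adaptor genes (right), in 118 Cd3-negative lymphocytes and 620 Cd3-positive cells of barcode set 1. On the left 87.3% of the Cd3-negative cells stand at 0 genes, and on the right 81.4% of them stand at 2 genes or more.

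The 17 members of set 1 without a Fcer1g UMI differed from the 101 with one in other genes too, at a median of 2871 against 3916 UMIs. Only 1 of the 17 held Tyrobp, against 62 of the 101. Lat was found in 4 of the 17 and 1 of the 101, Cd6 in 3 and 1, and Cd5, another co-receptor of T cells, in 3 and 0. Ramp3 was found in 12 of the 17 and 27 of the 101 (1188 against 166 CPM), and Il7r in 9 and 9. Gzma was found in 2 and 49 (1386 against 1977 CPM). The few members without Fcer1g therefore held more of Lat, Cd6, Cd5, Ramp3 and Il7r than the other members. In other genes the 17 stood apart from the 524 Cd3-positive cells with Il2rb or Nkg7 and no Fcer1g UMI. Irf8 stood at 679 CPM in the 17 against 111 CPM in those cells, and Trf at 325 against 35.6 CPM. Klrb1b stood at 113 against 14.3 CPM and Penk at 14.1 against 715 CPM. Whether the 17 are T cells with a missed Cd3 UMI was not tested.

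To set detection at equal depth, each cell was thinned to 2000 UMIs, which left 116 members and 612 Cd3-positive cells. Fcer1g was then found in 73.3% of members (64.3% to 81.1%) and in 19 of 612 Cd3-positive cells, against 85.6% of members unthinned. Tyrobp was found in 44.8% against 1.63%, and 53.4% of members unthinned. Gzma was found in 38.8% (29.9% to 48.3%) against 19.6%, and Ramp3 in 24.1% (16.7% to 33.0%) against 53.8% (49.7% to 57.8%), with 43.2% and 33.1% of members unthinned. The order between members and Cd3-positive cells was the same at equal depth for these 4 genes.

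Of 10 cytotoxic granule genes compared, 5 were higher and 1 was lower in members, with a median of 0.95. Gzma, the tryptase granzyme A (chromosome 13, 113093824 to 113100981), stood at 1894 CPM (1776 to 2018) against 798 CPM, a log2 ratio of 1.25 (1.14 to 1.36). It was uneven among members, found in 51 of 118 with a median of 0 and at most 119 UMIs, and was found in 142 Cd3-positive cells, 124 of them with Cd8. Its level was 1086 CPM in the Cd3-positive cells with Cd8 and 198 CPM in those without, so members stood above both.

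Gzmb, granzyme B, stood at 293 against 129 CPM and was found in 36 members and 86 Cd3-positive cells. With cells of at least 4000 UMIs alone, its log2 ratio with the pseudocount was 0.85, below the limit of 1. Gzmk, granzyme K, was the granule gene that was lower, at 23.8 against 157 CPM (log2 ratio −2.73). Serpinb9, which protects cytotoxic cells from their own granzyme B, stood at 797 against 176 CPM, in 87 members and 226 Cd3-positive cells. Ctsw, a protease of cytotoxic cells, stood at 684 against 246 CPM, and Prf1, perforin, was sparse at 27.7 against 11.9 CPM, in 12 members and 33 Cd3-positive cells.

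Of 11 cytokine and chemokine genes compared, 3 were higher and 1 lower (median −0.20). Xcl1, the ligand of XCR1 on cross-presenting dendritic cells, stood at 319 against 85.3 CPM in 41 members and 127 Cd3-positive cells, and 67 of its 161 UMIs in members were from 1 cell. Ccl3 stood at 176 against 63.4 CPM in 23 members. Ccl4, an inflammatory chemokine like Ccl3, stood at 569 against 265 CPM in 34 members, with 90 of 287 UMIs in 1 cell, and its log2 ratio with the pseudocount was 0.95, under the limit, when each cell weighed the same.

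Ccl5, a chemokine of cytotoxic lymphocytes, was near the same level in both classes, at 3533 CPM in 105 members and 4064 CPM in 489 Cd3-positive cells. Ifng, interferon-gamma, stood at 117 against 101 CPM. Il22 was found in 1 member only, with 17 UMIs.

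Of 22 lineage transcription factors compared, 3 were higher and 3 lower (median −0.14). The higher genes were Irf8, Eomes and Tbx21. Irf8, an interferon regulatory factor, stood at 1161 CPM (1069 to 1259) against 116 CPM, a log2 ratio of 3.33 (3.13 to 3.52), and was found in 89 members with a median of 3 and at most 41 UMIs, and in 155 Cd3-positive cells. Eomes stood at 137 against 47.8 CPM (1.52, 1.08 to 1.94) in 26 members, and Tbx21, which encodes T-bet, at 77.3 against 29.9 CPM in 28 members. The lower genes were Tox at 43.6 against 178 CPM, Prdm1 at 9.91 against 43.5 CPM and Tox2, at 0 in members and at least 4.63-fold below 27.5 CPM.

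Id2, the inhibitor of E proteins on which ILCs depend, was close at 876 against 814 CPM, and Rora, a nuclear receptor of ILC2 and other lymphocytes, at 818 against 855 CPM. Gata3, the factor of ILC2 and helper T cells, stood at 127 against 69.7 CPM in 36 members. Hhex, a homeobox factor of lymphoid development that was not in the list, was among the genes with the largest differences, at 236 against 12.6 CPM (log2 ratio 4.22, 3.69 to 4.79) in 58 members and 28 Cd3-positive cells.

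The remaining genes with the largest positive differences included Trf, which encodes transferrin, at 773 against 70.0 CPM in 87 members and 74 Cd3-positive cells. They also included Styk1, a pseudokinase of NK cells, at 67.4 against 1.66 CPM in 20 members, and Cited4, a transcriptional co-regulator, at 133 against 13.3 CPM in 33 members. Acta2 and Myh11, of smooth muscle, and Cd79a, of B cells, were also among the 12, and each came from 1 member (123, 28 and 65 UMIs). They describe those single cells and not the class.

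Of 12 checkpoint and costimulatory genes compared, 5 were lower and 0 higher in members (median −0.94). Pdcd1, which encodes PD-1, stood at 180.3 against 856 CPM (log2 ratio −2.25) in 20 of 118 members and 430 of 620 Cd3-positive cells. Ctla4 stood at 149 against 603 CPM in 36 and 437 cells, and Tnfrsf4, the costimulator OX40, at 19.8 against 208 CPM in 5 and 161 cells. Icos stood at 182 against 416 CPM. Tnfrsf18 and Tigit were close, at 323 against 303 CPM and 19.8 against 20.9 CPM.

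Among the genes with the largest negative differences, Penk, the precursor of enkephalins, stood at 7.93 against 681 CPM (log2 ratio −6.42, −8.30 to −5.07) in 3 members and 129 Cd3-positive cells. Slc16a11, a transporter of monocarboxylates, stood at 1.98 against 214 CPM in 1 and 171 cells, Tbc1d4, a Rab GTPase activator, at 5.94 against 279 CPM in 3 and 261 cells, and Nrn1, neuritin, at 1.98 against 238 CPM in 1 and 130 cells. Gm156 and Tff1, a trefoil peptide, were at 0 in members, at least 30.7-fold and 17.6-fold below the 183 and 105 CPM of Cd3-positive cells. Nbl1, Jchain, Mgp and Cxcl14 were also among the 12 but came from 10 to 43 Cd3-positive cells each. A single cell held 96.3% of the Jchain UMIs, and Jchain and Cxcl14 lost their direction without the cells that held markers of other types.

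Ramp3, an accessory protein of the calcitonin family of receptors (chromosome 11, 6658506 to 6677478), was named with the members as a marker, and it was lower in them than in Cd3-positive cells. It stood at 309 CPM (262 to 362) against 1009 CPM (973 to 1045), a log2 ratio of −1.71 (−1.95 to −1.47), and was found in 39 members and 392 Cd3-positive cells. Its level was highest in the Cd3-positive cells without Cd8, at 1926 CPM in 186 of 226 cells, and 568 CPM in 206 of 394 cells with Cd8. Its partner Calcrl was at 0 in members and at 11.0 CPM in Cd3-positive cells, and Ramp1 stood at 69.3 against 35.5 CPM. Over the list of neuropeptide and prostanoid receptors, 0 of 6 genes were higher and 3 lower (median −0.94), with Ptger2 at 1.98 against 38.2 CPM and Ptger4, another prostaglandin E2 receptor, at 200.1 against 118 CPM.

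Of 19 genes of tissue residence and traffic, 4 were higher and 3 lower in members (median −0.04). Among the higher genes, the chemokine receptor Ccr2 stood at 269 against 85.9 CPM in 42 members, and Itga1, the collagen-binding integrin chain CD49a, at 31.7 against 8.30 CPM in 15 and 21 cells. Ccr7, S1pr1 and Itgb2 were lower, at 63.4 against 181, 9.91 against 37.5 and 31.7 against 77.3 CPM. Cxcr6, a receptor of tissue lymphocytes, stood at 513 against 848 CPM, and Cd69 at 351 against 367 CPM. Genes of residence and of circulation thus stood on both sides.

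Of 16 cytokine receptors, 2 were higher and 1 lower (median 0.06). Il12rb2, a chain of the interleukin 12 receptor, stood at 91.1 against 15.6 CPM in 36 members and 37 Cd3-positive cells, and Il18rap, a chain of the interleukin 18 receptor, at 101 against 35.2 CPM. Il7r, the interleukin 7 receptor of T cells and many ILCs, stood at 93.1 against 234 CPM in 18 members and 203 Cd3-positive cells. Of 8 proliferation genes 0 were higher or lower (median −0.56), and Mki67 was found in 4 members. Of 12 immediate early and heat shock genes, 2 were higher and 1 lower (median 0.32). The higher ones were the near-identical Hspa1a, found in 6 members, and Hspa1b, found in 8, and 126 of the 257 Hspa1a UMIs were in 1 member.

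**Figure D4:**
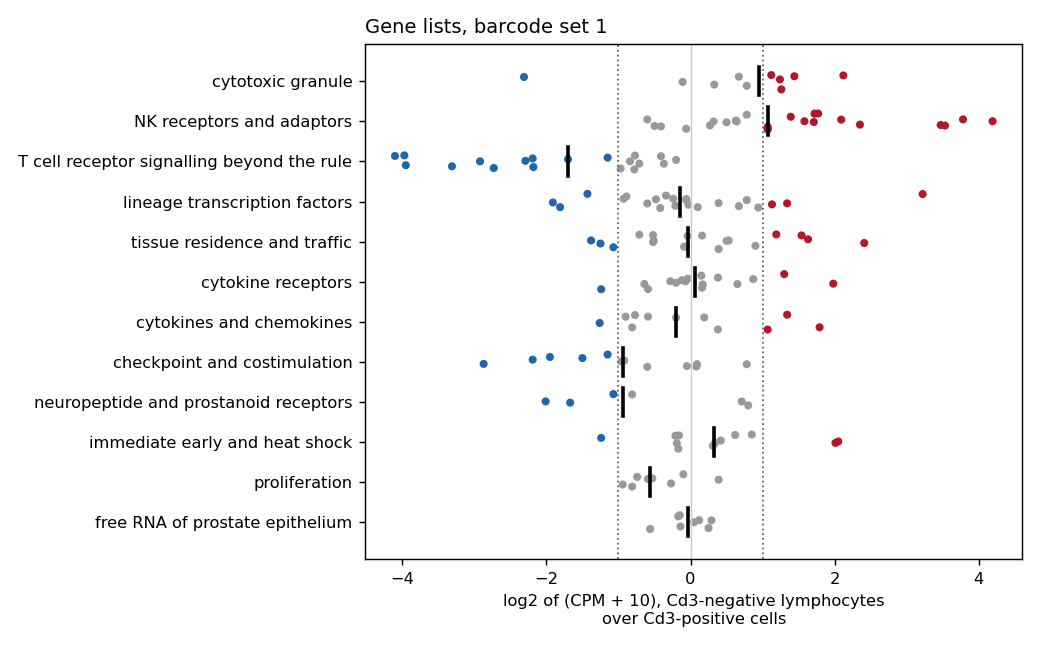
Difference between Cd3-negative lymphocytes and Cd3-positive cells of barcode set 1 as log2 of the ratio of (CPM + 10) (horizontal axis), 1 point per compared gene, by gene list (rows), with a black bar at each list's median and dotted lines at −1 and 1. The NK receptor list has 14 of 24 points to the right of 1 and none to the left of −1, and the T cell receptor signalling list has 11 of 19 points to the left of −1.

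Markers of other cell types were mostly at 0 or in single cells. The epithelium list summed to 541 CPM in members and 489.8 CPM in Cd3-positive cells, and the list of abundant prostate transcripts, which free RNA can bring into any droplet, summed to 491 and 486 CPM with 0 of 8 genes higher or lower. The GFP transcript of the mTmG allele stood at 29.7 and 48.5 CPM. The B cell list summed to 151 against 10.3 CPM through the single member with Cd79a. The mast cell list stood at 87.2 against 38.2 CPM through Kit alone, with Cpa3, Mcpt4, Tpsb2 and Fcer1a at 0, and the neutrophil list at 1.98 against 0 CPM with S100a8, S100a9 and Cxcr2 at 0.

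The dendritic cell list summed to 2320.2 against 1751 CPM with Flt3, Xcr1, Clec9a, Cd209a and Siglech at 0, and 166 of 234 H2-Aa UMIs in members were from 1 cell. The fibroblast list summed to 390.3 against 233 CPM, with 113 of 175 Dcn UMIs in 1 of the 6 members that held it. The endothelium list summed to 91.1 against 55.8 CPM with Cdh5 and Cldn5 at 0. Its only gene found was Pecam1, which leukocytes also make, in 31 members and 34 Cd3-positive cells.

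Members differed among themselves. Clustering the 123 cells gave 3 groups of 62, 40 and 21 cells at medians of 3709, 3966 and 4238 UMIs, and the 5 members of set 2 fell 1, 4 and 0 into them. Since the groups were made from these genes, their leading genes are a description. In the first group, led by Ccl4, Arrdc3 and Xcl1, Ccl4 stood at 1159 CPM and Xcl1 at 606 CPM, each in 32 of 62 cells, and Il21r, the interleukin 21 receptor, at 1019.7 against 132 CPM in the other members, in 58 of 62 cells. Its cells also held Cxcr6 (48 of 62), and 13 held Itga1.

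The second group was led by Il7r, at 246 against 22.9 CPM in 19 of 40 cells, Ramp3, at 726 against 112 CPM in 25 cells, and Cxcr3, at 120.1 against 14.3 CPM in 14 cells. Rora was found in 37 of its 40 cells, Icos in 24 and Gata3 in 15. Fcer1g was found in 24 of 40, and Lat and Cd6 in 7 and 6, where 4 of the 40 cells were of set 2. Neither Lat nor Cd6 was found in the third group. Other T cell genes did not follow this order, with Cd28 in 20 of 40 cells of the second group and 14 of 21 of the third, and Cd247 in 3 of 40 and 4 of 21.

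In the third group, Klra4, of the Ly49 receptors, stood at 199.8 CPM in 9 of 21 cells and Eomes at 504 CPM in 17 cells. Ccr2 was found in 16 of its cells and Ncr1 in 7, while Cxcr6 was found in 1, Rora in 4 and Tbx21 in 0. Rgs1 stood at 1560.1 CPM there and at 18371 CPM in the first group. Over the members of set 1, 0 of the 26 cells with Eomes held Itga1, which 15 other members held. Eomes and Itga1 were thus found apart in these sparse counts.

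**Figure D5:**
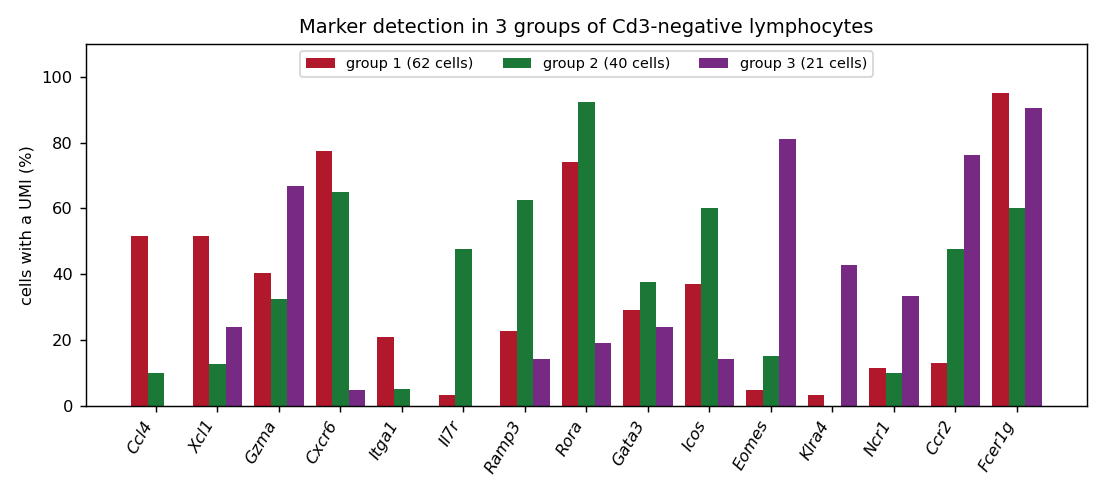
Percent of cells with a UMI (vertical axis) of 15 genes (horizontal axis) in the 3 groups found by clustering the 123 Cd3-negative lymphocytes, with 62, 40 and 21 cells. Bars start at 0. Ccl4, Xcl1 and Itga1 are most frequent in group 1, Il7r, Ramp3 and Icos in group 2, and Eomes, Klra4 and Ccr2 in group 3.

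The 5 members of set 2 held 2206 to 8424 UMIs (median 2703) and 19511 UMIs in all. Fcer1g was found in 1 of the 5, with 6 UMIs, and the same cell held 4 UMIs of Gzma, 9 of Nkg7, 53 of Ccl5 and 43 of Rgs1. The deepest cell held UMIs of Areg (8), an epidermal growth factor receptor ligand of ILC2 and other lymphocytes, Gata3 (5) and Rora (17). It held 1 UMI of Il2rb and 2 of Rgs1, and no Nkg7, Fcer1g or Gzma. Krt8, of the epithelium list, was found in 4 of the 5 members, with 5 UMIs in the deepest cell. Dcn, of the fibroblast list, had 86 UMIs in the 5 members, 85 of them in 1 cell, and the type of that cell was not tested. Ramp3 was found in 3 of the 5, and 3 of the 5 held at least 1 of the 8 T cell genes. In this set, 60 of 977 genes compared were higher than in Cd3-positive cells (6.14%) and 167 lower (17.1%). Against those with Il2rb or Nkg7, 49 of 796 genes were higher (6.16%) and 141 lower (17.7%). The counting interval of the log2 ratio lay off 0 for only 35 of the 60, 48 of the 167, 33 of the 49 and 50 of the 141. In set 1 it did so for all 186 higher and 341 lower genes, so the larger shares of set 2 do not show a larger difference. Thinning the 27 Cd3-positive cells with Il2rb or Nkg7 in set 2 to 2000 UMIs left 3 of 26 without Cd3 (11.5%, 2.45% to 30.2%). This interval overlaps that of set 1, and at 3000 UMIs 0 of 11 lost Cd3 (0% to 28.5%). At the pooled Cd3 level of each set, 4.96% of members of set 2 and 0.504% of set 1 would be without a UMI by counting alone. With 5 cells and this larger share, the Cd3-negative class of set 2 is less certain than that of set 1.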

How the data were processed

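Single-cell libraries (10x 3' v2) of 1 PIN and 1 PCa sample were, per the labels and the study's methods, aligned by the authors with Cell Ranger 3.1.0 to mm10 with hARtg and GFP sequences added, filtered, cleared of multiplets, and merged. The deposited values were natural log values of UMIs scaled to 10000 per cell plus 1, for 19320 features and 15742 cells; 2 feature names occurred more than once. UMIs were recovered by dividing each cell's back-transformed values by its smallest step, and 100.0% of values above 0 came out whole within 0.001. Cells had at least 1002 genes and at most 9.99% mitochondrial UMIs.

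For each class and set, summed UMIs were compared as CPM, since 1 library per tissue allows no test. A pseudocount of 10 CPM, a minimum of 20 UMIs over both sides and a log2 limit of 1 applied. The genes named were those of the marker and gene lists, plus, in each direction, the 12 with the largest log2 ratio past the limit and with the same sign in set 2 where 10 or more UMIs were present there. Members, lists, the 8 T cell and 5 innate genes and some alternatives were chosen with earlier results of these data known. Scrublet's method, run on each set, called 0 cells at its automatic limit; a limit of 0.25 called 154 cells (2.43%) of set 1 and 178 (1.89%) of set 2, 2 of them members, which stayed in. Members were clustered (1000 variable genes, 15 components, 15 neighbours, Leiden resolution 0.6). Python 3.11.15, numpy 2.4.6, scipy 1.17.1, pandas 2.3.3, scanpy 1.11.5, leidenalg 0.10.2 and scikit-learn 1.9.0 were used. The count steps were tested on simulated pooled counts without variation between cells, which does not cover UMIs gathered in single cells. Promoters were RefSeq sequence of GRCm38.p6. The alternatives varied depth limits, weights, scaling, pseudocount, count minimum, comparison cells, doublets and resolution. A few genes of the lists are counted but not reported by name here.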

Additional observations from a re-analysis of the deposited data

How the results depend on the processing

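No paired analysis was possible because PIN and PCa were 1 library each. With both Il2rb and Nkg7 required, members were 1.34% of set 1 and 0.0106% of set 2, and with Fcer1g required 0.0106% of set 2. Genes lower in members numbered 586 with cells of at least 4000 UMIs; with a pseudocount of 1 CPM 351 genes were higher and 1054 lower, and with 50 CPM 61 and 60. No gene counted in one direction was counted in the other under the alternatives run, but not every gene stayed counted. With every cell weighing the same, 156 of the 186 higher and 226 of the 341 lower genes were counted again. With cells of at least 4000 UMIs these were 143 and 308. Without cells with 5 or more UMIs of other types they were 163 and 249. Thinned to 1500 and 3000 UMIs, 8.68% and 3.53% of Cd3-positive cells lost Cd3. Tyrobp was found in 29.7% of members at 1500 UMIs, Fcer1g in 82.5% of members and 5.47% of Cd3-positive cells at 3000, and Ramp3 in 48.5% and 60.6% of Cd3-positive cells at 1500 and 3000. For single genes, 1036 values under alternatives were compared (log2 with the pseudocount). Of these, 843 stayed within the counting interval of the members' level and, for genes counted as higher or lower, past the limit of 1. Another 186 left that interval or fell under the limit, and 7 turned direction. Against Cd3-positive cells with Il2rb or Nkg7, Jchain was 0.25. Without cells with 5 or more UMIs of other types, a choice made after seeing the data, Jchain was 0.19, Acta2 −0.10, Cd79a 0.00, Cxcl14 0.18 and Myh11 −0.05. Over members with Fcer1g, Cd79a was −0.68. The causes were not tested beyond the cells left out. At a resolution of 0.3 the members formed 2 groups and at 1.0 they formed 4; the 21 cells of the third group stayed together, at 0.3 in a group of 59 with 38 of the 40 cells of the second, and at 1.0 in a group of 23. Of the 62 cells of the first group 34 stayed together at 1.0. With doublets left out, 26 of the 40 cells of the second group stayed together and the third lay in a group of 32. The alternative with T cell receptor constant genes was not run. Depth limits every gene found in few members: 3 UMIs over the members of set 1 are 5.94 CPM.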
